A study of Mus musculus with 4 samples.

Results

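The tripartite motif (TRIM) family was followed across 4 Illumina bead arrays of mouse embryonic fibroblasts, through every probe whose gene symbol in the platform annotation is Trim followed by a digit. The array carried 100 such probes for 55 genes. Of these, 56 probes for 37 genes had a detection score above 0.99 on at least 1 array and are the members described here, among 10530 named genes and 19656 probes that were detected in all. Total RNA came from cells of strain C57BL/6, which the labels call a MEF cell line, either wild type (WT) or with a knockout of Stat3 (STAT3KO). Stat3 encodes a transcription factor that cytokine receptors, the interferon receptor among them, activate. Cells of each genotype were left without treatment or were given interferon alpha (IFNa) at 1000 U per ml for 2 h, which makes 4 groups with 1 array each. The labels do not say how the knockout was made or whether a genotype was more than 1 line, so any difference between the genotypes may also be a difference between lines.

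TRIM proteins carry, in most cases, a RING domain that transfers ubiquitin to a target, then B-boxes, a coiled coil and a C-terminal domain that decides the target and sorts the family into classes. Several members act in the defence of cells against viruses: they ubiquitinate the RNA sensor RIG-I, bind antibody-coated virus or block incoming retroviruses. Type I interferon raises many of these through ISGF3, a transcription factor complex that binds the interferon-stimulated response element (ISRE) in promoters. Other members have no link to interferon and act in chromatin, on microtubules, in development or in the muscle sarcomere. TRIM proteins are known to be expressed in fibroblasts, among many other cells.

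The arrays detected between 16076 and 17524 probes. Stat3 itself was low on both arrays labelled STAT3KO, where its brighter probe fell short of WT 9.13-fold in untreated cells and 12.2-fold in treated ones. The label of fibroblasts held for WT, but fewer fibroblast markers were seen in STAT3KO: 14 of 15 were detected on at least 1 array, 10 of the 14 were lower in STAT3KO and 0 were higher by the limma test described below. Their summed signal was 16.24 to 16.42 (log2) in WT and 15.52 to 15.67 in STAT3KO. Thy1, a surface protein of fibroblasts, was at 13.49 and 13.77 in WT and was not detected in STAT3KO, while Vim, an intermediate filament of mesenchymal cells, was between 14.95 and 15.27 on all 4 arrays. Of 8 leukocyte markers on the array, Cd14 was detected, on all 4 arrays, and the defining Ptprc was not detected on any. Of 5 muscle markers on the array 2 were detected, Actc1 and Ckm, while Myod1, Myog and Des, which define muscle cells, were not. Of endothelial markers 3 of 5 were detected, and of epithelial markers 2 of 6. The part of these markers in the genotype differences below was not tested. In bulk RNA, fewer cells of a type and less RNA per cell cannot be told apart.

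All levels below are log2 of the authors' normalized intensities, given for WT untreated and WT IFNa first, then for STAT3KO untreated and STAT3KO IFNa. These values still hold the background of the array, so folds of dim probes are understated. A probe with a score at or below 0.99 is called not detected, and its fold is then a lower bound, written "at least". The probe just inside this limit was one of Trim23, with a highest score of 0.9902 at a level of 6.42, and the one just outside was of Trim52, with 0.988 at 6.38. Of the 56 member probes, 28 were detected on all 4 arrays, 4 on 3, 10 on 2 and 14 on 1. With 1 array per group, a difference between 2 arrays is a value with no test. The mean IFNa response over the genotypes and the mean genotype difference over the treatments were tested with limma over all 19656 detected probes, with Benjamini-Hochberg adjustment. The p-values of that fit hold no spread between replicate samples: they rest on the spread of other probes of like intensity, and a probe that answered in 1 genotype alone can pass.

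The first question is which Trim genes answered IFNa within 2 h. In the mean response, 6 of the 56 member probes rose by limma's adjusted p, each for a different gene (10.7%, where 0.87% of all detected probes rose), and 0 fell (0.224% of all). At an unadjusted limma p under 0.05, 7 members were higher and 0 lower, where 374 and 368 of all 19656 detected probes were. The risers were Trim25, Trim30a, Trim26, Trim56, Trim21 and Trim12a. All 6 are on a list of Trim genes linked to interferon, which was drawn up with earlier results of these data known and is no independent evidence of their direction. That list had 10 detected probes for 9 genes, with a median mean response of 0.66 (log2) and all 10 above 0. The other 46 member probes, for 28 genes, had a median of -0.02 and lay between -0.20 and 0.15, with 16 above 0. The median over all detected probes was -0.01. Of the listed probes, Trim21 and Trim12a, which rose, and both Trim34a probes were detected on the STAT3KO IFNa array alone. They entered the tested probes through the array on which they were highest. The median of the list and its count above 0 are thus partly fixed by the detection rule.

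**Figure D1:**
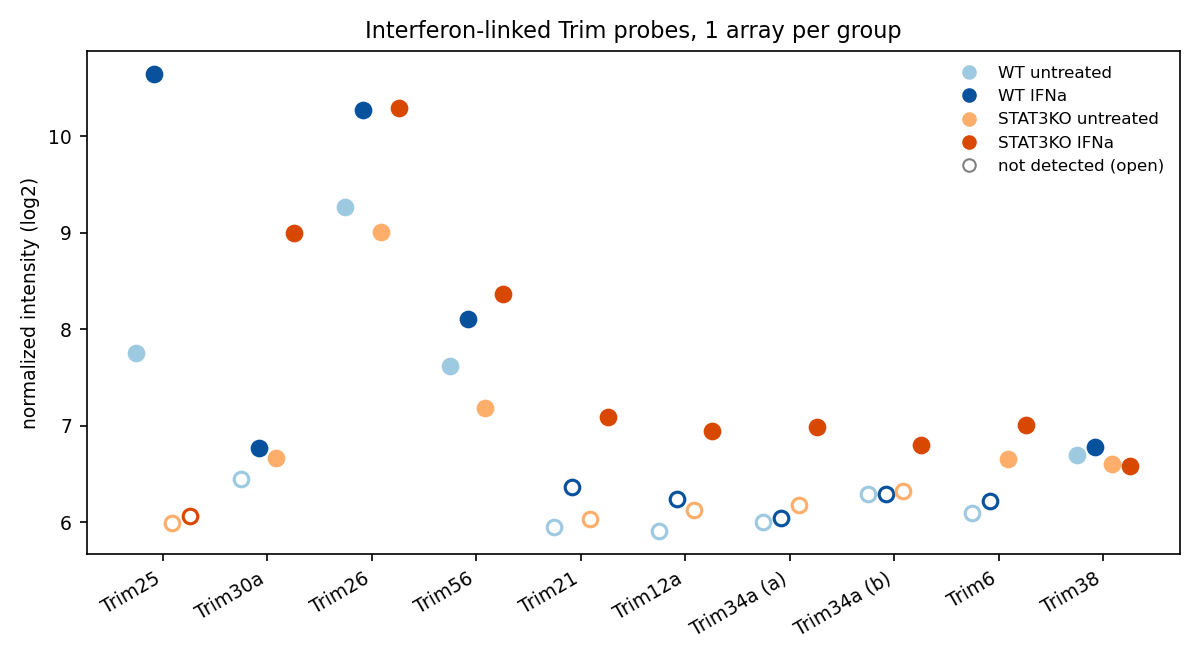
Normalized intensity (log2) of the 10 interferon-linked Trim probes on each of the 4 arrays, 1 point per array, ordered by mean IFNa response; open circles are arrays on which the probe was not detected, and (a) and (b) are the 2 probes of Trim34a. Trim25 was detected in WT alone, at 7.75 and 10.65, while Trim21, Trim12a and both Trim34a probes were detected with IFNa in STAT3KO alone.

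Trim25, a ligase that ubiquitinates RIG-I and also conjugates the ubiquitin-like protein ISG15, had levels of 7.75, 10.65, 6.00 and 6.07 (ILMN_2480463, chromosome 11). In WT cells IFNa thus came with 7.43-fold more signal, and the probe was not detected on either STAT3KO array, where its scores were 0.281 and 0.434. Its mean response of 1.48 ± 0.14 (SE, limma adjusted p 7.37e-22) is the average of a large rise in WT and no measurable level in STAT3KO. Without a detection filter limma's adjusted p was 0.129. In the WT response Trim25 held rank 11 of the 17639 probes detected on either WT array.

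Trim26, a RING ligase whose gene lies in the major histocompatibility complex, had levels of 9.26, 10.27, 9.005 and 10.29 (ILMN_1240074, chromosome 17). With IFNa its signal was higher by 2.02-fold in WT and 2.44-fold in STAT3KO. Its mean response was 1.15 ± 0.13 (SE, limma adjusted p 6.34e-17). Trim56, a ligase that enhances antiviral signalling from nucleic acid sensors, had levels of 7.62, 8.11, 7.18 and 8.37 (ILMN_2441921, chromosome 5). IFNa arrays stood above untreated ones by 1.40-fold in WT cells and by 2.28-fold in STAT3KO cells, for a mean response of 0.84 ± 0.14 (SE, limma adjusted p 6.68e-07). Both were detected on all 4 arrays. With the deposited intensities scaled to each array's 75th percentile instead, the mean responses of Trim26 and Trim56 were 1.22 and 0.97, but limma's adjusted p was 1 for each.

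The remaining risers came from chromosome 7, where Trim6, Trim34a, Trim5, Trim12a, Trim34b, Trim12c, Trim30b, Trim30c, Trim30a and Trim30d follow each other with 1 other gene among them in the RefSeq order of assembly GRCm38.p6. This cluster of related genes corresponds to the region of the human TRIM5 gene, which encodes a retroviral restriction factor. The array had no probe named Trim5, Trim34b or Trim30c, and those of Trim12c, Trim30b and Trim30d were not detected. Trim30a, which restrains inflammatory signalling in mouse macrophages, had levels of 6.44, 6.77, 6.66 and 8.99 (ILMN_1229630), and its probe was not detected in WT untreated. The STAT3KO IFNa array stood well above the other 3. IFNa against untreated gave a fold of at least 1.24 for WT and of 5.04 for STAT3KO, and the mean response was 1.33 ± 0.15 (SE, limma adjusted p 6.48e-16). Trim12a had levels of 5.90, 6.24, 6.13 and 6.94 (ILMN_2635791), detected on the STAT3KO IFNa array alone, where it was at least 1.47-fold above STAT3KO untreated. Its mean response was 0.58 ± 0.16 (SE, limma adjusted p 0.0338), and this call was lost after normexp background correction with quantile normalization (limma adjusted p 0.268) and with 75th percentile scaling (limma adjusted p 0.592), although the mean response itself was then 1.23 and 0.66. A second Trim12a probe was not detected on any array. Trim21, a cytosolic receptor for the constant part of antibodies, lies on the same chromosome outside the cluster. Its levels were 5.95, 6.36, 6.03 and 7.09 (ILMN_2434528), again detected with IFNa in STAT3KO alone, at least 1.63-fold above STAT3KO untreated. Its mean response was 0.74 ± 0.16 (SE, limma adjusted p 7.39e-04).

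Other interferon-linked members did not pass the test. Trim34a, another gene of the cluster, had levels of 6.00, 6.04, 6.18 and 6.98 on one probe (ILMN_1222483) and 6.30, 6.29, 6.32 and 6.80 on the other (ILMN_2488228). Both were detected with IFNa in STAT3KO alone, and their mean responses were 0.42 (limma adjusted p 0.479) and 0.24 (limma adjusted p 1). Trim6, whose human protein builds free ubiquitin chains for the kinase IKK epsilon, had levels of 6.10, 6.22, 6.65 and 7.01 (ILMN_1255191) and was detected in STAT3KO alone, with 1.28-fold more signal under IFNa. Trim38, which dampens signalling from Toll-like receptors, had levels of 6.69, 6.78, 6.60 and 6.58 (ILMN_1228339), so that IFNa minus untreated was 0.09 in WT and -0.02 in STAT3KO. Whether the probes of the chromosome 7 genes tell the related copies apart was not tested. Among the interferon-linked genes on the array, Trim14, Trim12c, Trim30b and Trim30d had no detected probe.

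Promoter sequence was set beside these responses, as ISGF3 acts through the ISRE. RefSeq promoters of GRCm38.p6, from 250 bases before to 50 after a start, were found for 30 of the 37 member genes. The ISRE core was searched as GAAANNGAAA on both strands (TTTCNNTTTC on the other), with overlapping matches allowed. It was found in 3.44% of all 32851 promoters and at 3.99% of the 27025 genes with a promoter. Among members it was found at 6 of 30 genes: 4 of the 6 risers (Trim12a, Trim21, Trim26 and Trim30a), Trim34a, and Trim2, a ligase known from neurons that is not on the interferon-linked list. Trim12a, Trim30a and Trim34a are related genes of the chromosome 7 cluster, so their matches are not independent. The GAS core, the palindrome TTCNNNGAA bound by STAT dimers, was found in 8.30% of all promoters and at 2582 of the 27025 genes. It was found at 4 of the 30 member genes (Trim15, Trim38, Trim45 and Trim46) and at 0 of the 6 risers. The lines below show 30 bases around each ISRE match, 5′ to 3′ on the strand of the gene, so that the cores can be compared; capitals mark the matched bases, which span 2 overlapping matches in Trim21 and Trim26.
Trim30a, chr7:104465210-104465239, minus strand: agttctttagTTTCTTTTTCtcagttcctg
Trim30a, second start, chr7:104446104-104446133, minus strand: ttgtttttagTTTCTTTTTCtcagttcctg
Trim12a, chr7:104315466-104315495, minus strand: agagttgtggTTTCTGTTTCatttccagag
Trim34a, chr7:104244457-104244486, plus strand: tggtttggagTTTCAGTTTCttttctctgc
Trim21, chr7:102565447-102565476, minus strand: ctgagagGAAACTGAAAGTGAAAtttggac
Trim26, chr17:36836979-36837008, plus strand: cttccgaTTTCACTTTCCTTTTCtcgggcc
Trim2, chr3:84212791-84212820, minus strand: tcagctttggTTTCCTTTTCtctaagacag

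The first matched base lay at base 11 of the transcript in Trim12a and Trim34a, at base 14 in Trim21 and at base 29 in Trim2. In Trim26 it lay at base -160, counted back from the start. The 2 Trim30a starts had it at base -36 of the first listed start and at base 3 of the second. A match describes letters and not a bound site. Trim25 and Trim56 rose without a match in this window, which says nothing of the factors that act on them. The 250 bases before the start of Trim25, with the largest fold in WT, and of Trim26, with a response in both genotypes, are printed so that a promoter with no ISRE core can be read beside one with 2 overlapping cores, in capitals.
Trim25, chr11:88999153-88999402, plus strand: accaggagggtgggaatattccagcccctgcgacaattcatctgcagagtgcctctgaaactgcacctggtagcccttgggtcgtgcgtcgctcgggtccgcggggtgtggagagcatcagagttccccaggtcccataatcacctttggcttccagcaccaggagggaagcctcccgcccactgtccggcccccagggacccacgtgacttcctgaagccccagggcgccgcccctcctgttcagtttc
Trim26, chr17:36836896-36837145, plus strand: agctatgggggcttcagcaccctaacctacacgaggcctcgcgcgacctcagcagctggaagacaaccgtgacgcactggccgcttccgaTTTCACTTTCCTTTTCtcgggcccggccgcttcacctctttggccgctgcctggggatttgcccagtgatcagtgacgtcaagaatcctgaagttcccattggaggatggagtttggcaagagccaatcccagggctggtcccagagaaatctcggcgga

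The next question is whether the response differed between the genotypes. In WT, 2 of 40 members detected on either array were at least 2-fold higher with IFNa, Trim25 and Trim26 (0.306% of all probes), and 0 were at least 2-fold lower (0.0283% of all). In STAT3KO, 4 of 51 were at least 2-fold higher, Trim30a, Trim26, Trim56 and Trim21 (0.56% of all), and 0 were lower (0.022% of all). These counts were taken on measured values, so those of Trim21 include a dim array on which it was not detected. At 1.5-fold the counts were 2 of 40 in WT (0.726% of all) and 6 of 51 in STAT3KO (1.35% of all), where Trim12a and Trim34a joined. At this threshold 0 members were lower in either genotype (0.454% of all in WT and 0.549% in STAT3KO). Trim21, Trim12a and this Trim34a probe (ILMN_1222483) were detected on the STAT3KO IFNa array alone and were counted through it. As bounds their folds were at least 1.63, 1.47 and 1.51. The STAT3KO counts are thus partly fixed by the detection rule.

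The difference of responses, STAT3KO minus WT, has no test in this design. For Trim25 the measured values gave -2.82 (log2), the lowest of all 19656 detected probes, but its STAT3KO side is a difference of 2 values that were not above background. For Trim30a it was 2.01, the tenth highest, with WT untreated not detected. These were the members past 2-fold in either direction: 1 of 56 higher (0.555% of all) and 1 of 56 lower (0.148% of all). Past 1.5-fold, 4 members were higher (3.47% of all) and 2 were lower (1.73% of all). The higher members were Trim30a, Trim34a at 0.77 on ILMN_1222483, Trim56 at 0.70 and Trim21 at 0.65. The lower members were Trim25 and Trim37. Trim37, a ligase of peroxisomes and centrosomes, had levels of 6.39, 6.74, 6.79 and 6.51 (ILMN_1247915), was not detected in WT untreated, and had a difference of -0.64. Of the 10 interferon-linked probes 8 had a difference above 0, with a median of 0.48 over the 10. Of these 8, 5 were detected in STAT3KO alone and thus became members through the genotype that makes the difference positive, so the count and the median are partly fixed by the detection rule; the 2 detected on all 4 arrays were Trim26 and Trim56. Among the other 46 members 18 were above 0 with a median of -0.09, and over all detected probes the median was -0.05 with 43.1% above 0. The difference for Trim26 was 0.28, and under 75th percentile scaling it turned to -0.58; that scaling also moved the median difference of all probes to -0.27.

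**Figure D2:**
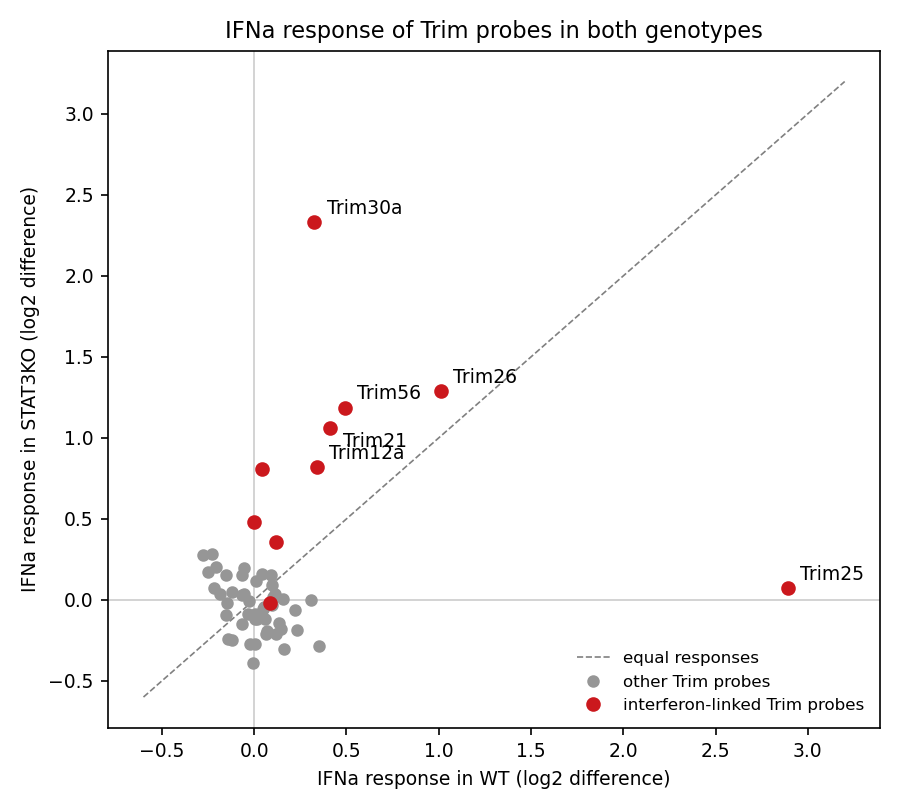
IFNa response (log2 difference of 2 arrays) of the 56 Trim probes in WT on the x axis and in STAT3KO on the y axis; red points are interferon-linked, grey points are other members, named points passed limma's test of the mean response, and the dashed line marks equal responses. Trim25 lies far to the right of the line, with a difference of -2.82, and Trim30a far above it, with 2.01; Trim26, Trim56, Trim21 and Trim12a lie nearer to the line, and the grey points lie around 0.

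The last question is how the Trim genes differed between the genotypes. By the mean genotype difference, 18 of 56 member probes, for 14 genes, were higher in STAT3KO by limma's adjusted p (32.1%, where 19.1% of all detected probes were higher), and 4, for 4 genes, were lower (7.14%, where 17.1% of all were lower). At an unadjusted limma p under 0.05, 21 were higher and 4 lower, where 4343 and 3892 of all 19656 detected probes were. Of the 18 higher probes, 8 were detected in STAT3KO alone (1 each of Trim54, Trim44, Trim71, Trim62, Trim6, Trim34a, Trim12a and Trim21), and of the 4 lower, Trim25 was detected in WT alone. These became members through the genotype in which they are high, so the counts support nothing about the family. Since so many of the array's detected probes passed this test, a call is no mark of the family. All 22 called probes had the same sign without and with IFNa. The call is made on the mean of these 2 differences, so the shared sign is largely fixed by it and is no separate evidence. Of the 22, 3 differed by at least 2-fold at both while 16 were under 2-fold at both. On single arrays without IFNa, 4 of 49 members were at least 2-fold higher in STAT3KO, Trim54, Trim44, Trim71 and Trim62 (5.06% of all), and 1 was lower, Trim25 (4.53% of all). With IFNa, 3 of 49 were at least 2-fold higher, Trim54, Trim44 and Trim30a (4.49% of all), and Trim25 was the 1 lower (4.92% of all). These counts use measured values, although Trim54, Trim71 and Trim62 were not detected in WT and Trim25 was not detected in STAT3KO. At 1.5-fold, 8 probes were higher (12.7% of all) and 2 lower (10.6% of all) without IFNa, and 13 were higher (11.2% of all) and 2 lower (11.3% of all) with it. Of the fibroblast markers, 10 of 14 were lower in STAT3KO by the same test, and their part in these counts was not tested.

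The member with the largest mean difference over the treatments was Trim54, which encodes a protein of the muscle sarcomere that also binds microtubules. Its levels were 5.80, 5.97, 9.81 and 9.51 (ILMN_2756950, chromosome 5), and it was not detected in WT. Untreated, STAT3KO was at least 10.2-fold above WT, and under IFNa at least 8.50-fold, and the mean difference was 3.77 ± 0.14 (SE, limma adjusted p 6.14e-150). The related sarcomere ligase Trim63 was between 6.36 and 6.74 on all 4 arrays (ILMN_3161061), with no difference past the test. Of the muscle markers Actc1 and Ckm were detected, with levels of 6.24 to 6.67, and their mean genotype differences were -0.01 and 0.03.

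Trim44, which lacks a RING and resembles ubiquitin proteases, had levels of 8.97, 9.20, 11.82 and 11.63 on its brightest probe (ILMN_2465490, chromosome 2). STAT3KO was above WT by 7.20-fold without IFNa and 5.39-fold with it, with a mean difference of 2.64 ± 0.13 (SE, limma adjusted p 6.33e-89). Its other probes were dim, with measured differences of the same sign: ILMN_1231217 differed by 0.41 (limma adjusted p 0.0355, but 0.350 with 75th percentile scaling and 0.113 after normexp) and ILMN_2471289 by 0.38 (limma adjusted p 0.0539). Neither was detected in WT. Their folds are thus lower bounds and cannot be set against that of the brightest probe.

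Trim25 was the member lowest in STAT3KO, at least 2.58-fold without IFNa and at least 18.2-fold with it, with a mean difference of -3.17 ± 0.14 (SE, limma adjusted p 1.18e-102). Trim30a was at least 1.15-fold higher in STAT3KO without IFNa and 4.67-fold higher with it, with a mean difference of 1.22 (limma adjusted p 1.40e-14). Trim6, Trim34a on ILMN_1222483, Trim12a and Trim21 had mean differences of 0.67, 0.56, 0.46 and 0.41, which passed the threshold, but none of the 4 was detected in WT, so they were tested only because STAT3KO was high. With 75th percentile scaling limma's adjusted p was 0.163 for that Trim34a probe, 0.412 for Trim12a and 0.570 for Trim21, which was at 0.0632 after normexp. Of these, Trim6 was the 1 detected in STAT3KO without IFNa. Trim26 and Trim56 did not pass, at -0.12 (limma adjusted p 0.548) and -0.09 (limma adjusted p 0.712).

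**Figure D3:**
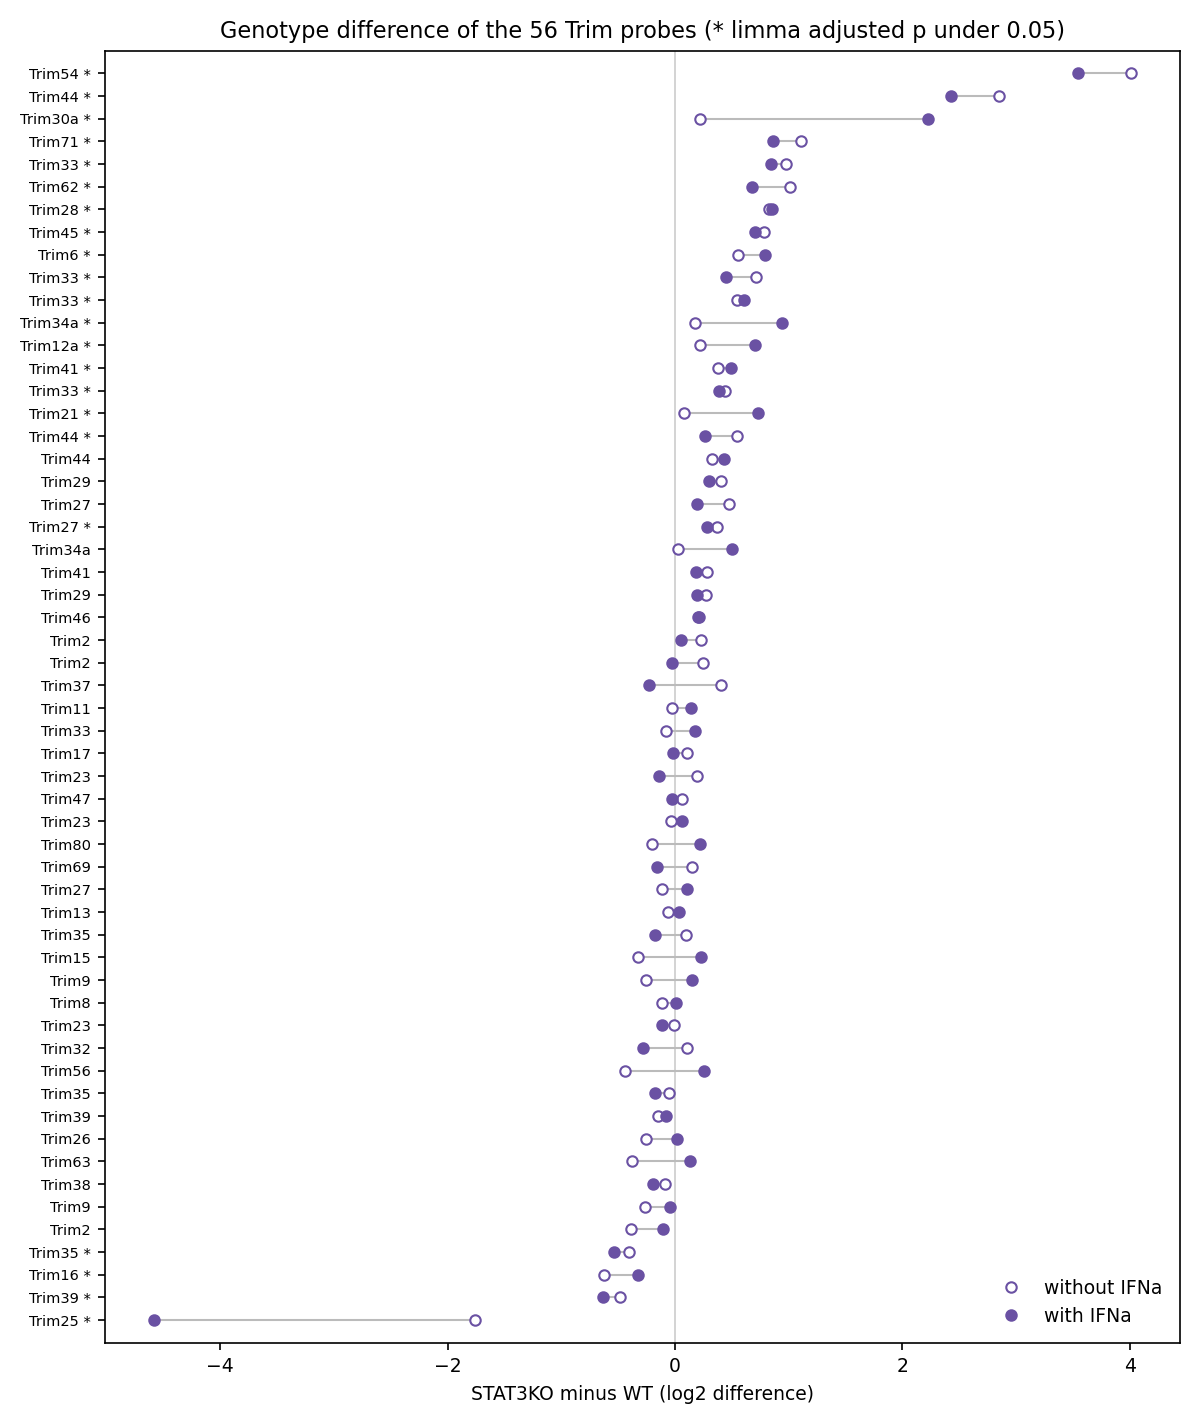
STAT3KO minus WT (log2 difference of 2 arrays) of each of the 56 Trim probes, 1 row per probe, sorted by the mean; open circles are without IFNa, filled circles with IFNa, and an asterisk marks the 22 probes past limma's test. Trim54 and 1 probe of Trim44 stand apart on the right without and with IFNa, Trim25 on the left, and Trim30a differs mainly with IFNa.

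Among regulators of development and chromatin, Trim71, an RNA-binding protein of the early embryo and a target of the let-7 miRNA, had levels of 6.13, 6.11, 7.24 and 6.97 (ILMN_2502290, chromosome 9). It was not detected in WT and was at least 1.71-fold higher in STAT3KO without IFNa and at least 1.46-fold higher with it, with a mean difference of 0.98 (limma adjusted p 6.34e-09). Trim33, a nuclear ligase that binds histones and Smad proteins, had 5 detected probes. Its brightest probe was at 8.42, 8.44, 9.40 and 9.29 (ILMN_2440399), 1.97-fold and 1.80-fold higher in STAT3KO without and with IFNa, with a mean difference of 0.91 (limma adjusted p 1.97e-11). Of the other 4 probes, 3 were also higher by the test, at 0.41 to 0.58, and the fourth, detected on 1 array, differed by 0.05 (limma adjusted p 0.881). With 75th percentile scaling the 4 called Trim33 probes were still higher, at 0.56 to 1.01, but limma's adjusted p ran from 0.0666 to 0.564. Trim28, the corepressor KAP1 that silences retroelements, had levels of 12.04, 12.01, 12.87 and 12.86 (ILMN_1227225) and a mean difference of 0.84. It was 1.77-fold and 1.80-fold higher in STAT3KO without and with IFNa. The IFNa response of Trim28 was -0.02.

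Trim62 had levels of 5.99, 6.11, 7.001 and 6.79 (ILMN_2620942), was not detected in WT, and in STAT3KO exceeded the WT limit by at least 1.45-fold without and at least 1.29-fold with IFNa (mean difference 0.84, limma adjusted p 9.92e-07). Trim45, a ligase with a filamin repeat, had levels of 7.07, 6.999, 7.85 and 7.70 (ILMN_2454919), with a mean difference of 0.75. Single probes of Trim41 and Trim27 passed at 0.44 and 0.32, while their other probes, 1 and 2 in number, did not.

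The lower members besides Trim25 differed by less than 2-fold. Trim39, a ligase that regulates apoptosis and the cell cycle, had levels of 9.59, 9.75, 9.11 and 9.11 (ILMN_1251912), a mean difference of -0.56 (limma adjusted p 5.58e-05), while its dimmer probe was at -0.12. Trim16, which lacks a RING and acts in the removal of damaged lysosomes, had levels of 7.37, 7.22, 6.74 and 6.90 (ILMN_2482494), a mean difference of -0.48 (limma adjusted p 0.00732). Trim35 had levels of 7.75, 7.64, 7.35 and 7.10 (ILMN_2469541), a mean difference of -0.47 (limma adjusted p 0.00509), and its other probes were at -0.04 and -0.11. With the 75th percentile scaling, the mean differences were -0.54 for Trim39, -0.62 for Trim16 and -0.45 for Trim35, while limma's adjusted p was 0.961, 0.0811 and 0.567.

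**Figure D4:**
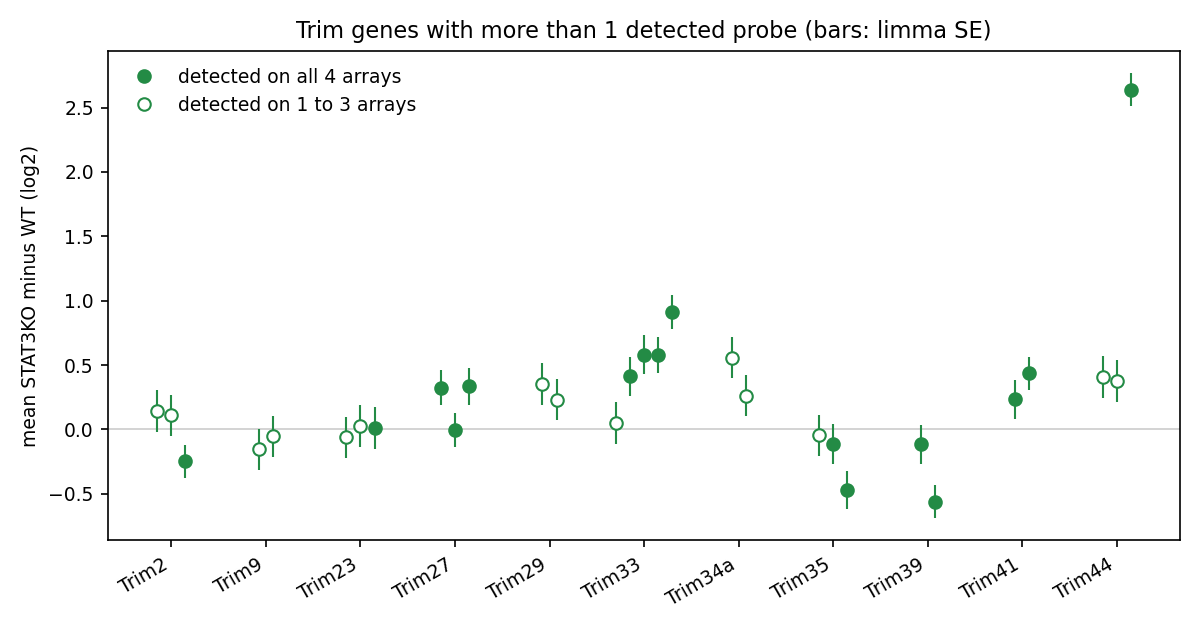
Mean STAT3KO minus WT (log2, with limma's SE as bars) of each probe of the 11 Trim genes with more than 1 detected probe; probes of a gene stand side by side, dimmest on the left, and open circles were detected on 1 to 3 arrays. The measured differences of Trim44 range from 0.38 to 2.64, the dim ones with WT not detected, and those of Trim33 from 0.05 to 0.91.

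By class of C-terminal domain, the members that rose with IFNa were 5 of the 25 probes with a PRY-SPRY domain, which binds the target protein, and 1 of 2 probes of the class with no C-terminal domain, Trim56. None of the other classed probes rose, and 0.87% of all detected probes did. All these risers are on the interferon-linked list, drawn up with earlier results of these data known, so the counts do not single out a class. In the genotype difference, 8 of the 25 PRY-SPRY probes were higher and 3 lower, to be read against 19.1% higher and 17.1% lower among all probes, as are the small counts that follow. In the class with a PHD finger and bromodomain, which read histones, 5 of 6 probes were higher, from 2 genes (Trim28 and Trim33), so they are not independent. Among 5 probes of the COS box class, which binds microtubules, 1 was higher (Trim54), and among 5 NHL repeat probes 1 was higher (Trim71). The 6 probes with a MATH, ARF, filamin or transmembrane domain had 1 higher (Trim45), and the 6 without a RING had 2 higher (both Trim44) and 1 lower (Trim16). The higher probes of Trim12a, Trim21, Trim34a, Trim6, Trim62, Trim54 and Trim71, and 1 of those of Trim44, were detected in STAT3KO alone. The lower Trim25 was detected in WT alone. These became members through the genotype in which they are high, so the counts of their classes support nothing about a class. Trim80 was not classed, with a mean response of -0.04 and a mean genotype difference of 0.01.

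Of TRIM proteins with other symbols 2 were detected, and 1 of these rose with IFNa. Pml, the scaffold of PML nuclear bodies, had levels of 8.81, 10.41, 9.31 and 11.12, with a mean response of 1.71. Mid2, a microtubule-bound ligase, had levels of 7.82, 7.85, 7.23 and 7.14, and its mean genotype difference was -0.65. Around Trim25, 13 genes of the RIG-I pathway were detected, of which 4 rose with IFNa and 0 fell, with a median response of 0.33. Of all detected probes, 0.87% rose and 0.224% fell, also the shares for the lists that follow. The risers were Zc3hav1, an antiviral RNA-binding protein, at 1.76, Irf7, a transcription factor of interferon genes, at 1.47, Ddx58, which is RIG-I itself, at 1.19, and its relative Dhx58 at 1.17. In the genotype difference 7 of the 13 were higher and 2 lower, where 19.1% of all probes were higher and 17.1% lower. The lower genes were Mavs, the adaptor of RIG-I, at -0.51, and Cgas, a DNA sensor, at -4.46. Cgas had levels of 10.21, 10.84, 6.04 and 6.08, and like Trim25 it was not detected in STAT3KO.

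Ddx58, whose protein is a target of Trim25, had levels of 6.17, 7.08, 6.79 and 8.25. Its RNA signal was thus detected on the STAT3KO IFNa array, on which the Trim25 probe was not detected. Rnf135, another gene of the RIG-I pathway list, was detected on all 4 arrays, at 7.02, 7.33, 7.72 and 8.11. Protein was not measured. Of 8 ubiquitin and ISG15 conjugation enzymes detected, 2 rose with IFNa, Uba7, which activates ISG15, at 1.47 and Ube2l6, which carries it, at 0.59. In the genotype difference, against the same shares of all probes, 3 of the 8 were higher and 0 lower. Of 8 other interferon-linked ligases and partners, 4 rose, with Dtx3l at 2.62 and its partner Parp9 at 2.58, and in the genotype difference 4 were higher and 1 lower. Of 6 ISGF3 and STAT pathway genes, Irf9 at 2.62 and Stat2 at 2.40 rose, and in the genotype difference 3 were higher and 2 lower, one of them Stat3. Of 5 partners of KAP1 and PML, Daxx rose, at 1.61, and Setdb1, the histone methyltransferase recruited by KAP1, was higher in STAT3KO at 0.41. No gene of these lists fell in the mean response.

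The 18 Trim genes with probes but no detected probe were Trim7, Trim10, Trim12c, Trim14, Trim24, Trim30b, Trim30d, Trim31, Trim36, Trim40, Trim42, Trim50, Trim52, Trim60, Trim61, Trim65, Trim66 and Trim75. Their levels are not above the array's background, which does not show that the genes were silent. Among detected members not yet described, Trim8, a regulator of cytokine signalling, was bright at 12.60 to 12.74, and Trim47 lay between 9.67 and 9.75, with mean responses of -0.08 and -0.04. The brightest of 3 Trim2 probes had levels of 9.54, 9.33, 9.15 and 9.22. Trim11 lay between 7.94 and 8.07, Trim32, a ligase of muscle and brain, between 6.89 and 7.28, and Trim46, which bundles axonal microtubules, between 6.60 and 6.90. Trim13, Trim15, Trim17, Trim23, Trim29, Trim69 and Trim9 lay between 5.97 and 6.60 on all their detected probes, close to the lowest detected levels of the arrays, 6.39 to 6.46. None of these detected members passed either limma test.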

How the data were processed

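Total RNA of 4 samples was labelled with biotin and hybridised to Illumina bead arrays, 1 per group. Per the submitters' processing notes, BeadStudio 3.2.3 was used. Per the file headers, the authors deposited an intensity and a detection score for each of 46632 probes, and separately normalized intensities, on a linear scale with a median of 75 on each array. How the authors normalized is not stated in the sources used here. For WT untreated the deposited intensity equals the normalized values (largest difference 0), while the other 3 were deposited before normalization, with medians of 77.4 to 96.7. The number of arrays limits the precision.

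The authors' normalized values were taken to log2 and each probe was kept separate. Of the probes, 29976 had 1 gene symbol in the platform annotation, 10 had several and 16646 had none. All 100 Trim probes matched RefSeq by Entrez ID. The members and the gene lists were chosen with earlier results of these data known. Lists of other genes use the brightest detected probe per gene. Differences were fitted with limma 3.58.1 in R 4.3.3 (genotype plus treatment, eBayes with intensity trend, two-sided, 1 residual and infinite prior degrees of freedom), and a call is an adjusted p under 0.05. The fit was tested on simulated data. For a bound, the dim side was raised to the lowest level detected on that array where the probe lay under it. Named members were the interferon-linked genes, members past limma's test of the response or 2-fold in a response, the 6 largest called genotype differences in each direction, the 3 members most extreme either way in the difference of responses, and genes whose probes disagree past 1.5-fold. Other members and list genes were named to account for each. Alternatives were normexp with quantile normalization, quantile normalization alone, scaling to the 75th percentile, 16 added before log2, only probes detected on all 4 arrays, no detection filter and no intensity trend.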

Additional observations from a re-analysis of the deposited data

Results flagged for a closer look

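Opposite signs of the IFNa response in the 2 genotypes were common: 32 of the 56 member probes had them (57.1%), as did 57.4% of all detected probes, so the values here do not stand out for that. Among the named members, in 11 probes of 8 genes, the IFNa response had opposite signs in the 2 genotypes, 1 array pair each. The difference of responses, STAT3KO minus WT on the log2 scale, was not tested in any of them, and groups of 1 array are too small for a check of outlying samples. The largest of the 11 was Trim37, at -0.6357, followed by one Trim34a probe (ILMN_2488228) at 0.4831 and Trim54 at -0.4682. Trim44 had -0.4175 on ILMN_2465490 and -0.2777 on ILMN_1231217. Trim62 had -0.3308 and Trim16 had 0.3061. The Trim33 probes had -0.2582 (ILMN_1236637), 0.2524 (ILMN_1259222) and -0.1324 (ILMN_2440399). ILMN_1259222 was detected on the STAT3KO IFNa array alone, so its sign cannot be set against those of the others. Trim38 had -0.1043. None of these members passed limma's test of the mean response.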

How the results depend on the processing

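No paired analysis was possible because each group had 1 array and the labels give no replicate numbers; for the same reason no replicate could be left out. Among the 25 named probes recomputed singly, no called value changed sign. The 6 rises in the mean response became 2 with probes detected on all 4 arrays and 3 with 75th percentile scaling. The 18 higher and 4 lower genotype calls became 10 higher with detection on all 4 arrays, and 7 higher and 1 lower with 75th percentile scaling. At 2-fold, with detection on all 4 arrays, the WT response had 1 member higher, the STAT3KO response 2, the genotype difference 1 higher and 0 lower both without and with IFNa, and the difference of responses 0 in each direction. With normexp, the STAT3KO response had 7 higher, the genotype difference 10 higher and 2 lower without IFNa and 12 higher with it, and the difference of responses 10 higher and 2 lower. With 75th percentile scaling, the genotype difference had 8 higher without IFNa and 6 higher and 2 lower with it, and the difference of responses 3 higher and 4 lower. With 16 added, the WT response had 1 higher and the genotype difference without IFNa 2. Quantile normalization alone gave 5 higher in the genotype difference with IFNa. The share of all probes past 2-fold was not taken under these settings. Changes in these counts are therefore not shown to be particular to the Trim probes. Over all probes, calls in the mean response numbered 215 and ran from 66 (75th percentile) to 214, with 124 without a detection filter; those of the genotype difference numbered 7099 and ran from 1883 to 7134. The 75th percentile scaling moved the median of all probes to 0.15 in the WT response and -0.12 in the STAT3KO response. For single named members, 635 of the recomputed values were counted as the same, 16 as moved, 18 lost a call and 1 gained it. Small values with no call could change sign and still count as the same. The WT response of Trim16, for example, was -0.15, and 0.02 with 75th percentile scaling. The Trim26 difference of responses, which changed sign under that scaling, counted as moved. The cause was not tested, except that fewer probes can pass where detection on all 4 arrays is required: Trim25, Trim30a, Trim21, Trim12a and Trim54 are then left out. Signal near background limits the dim members, whose folds are bounds.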

Other observations

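The neighbours of Trim25 on chromosome 11 were looked at after its values were seen. In the RefSeq gene order, the detected neighbours on one side were Mrps23, Msi2, Akap1 and Coil, with mean genotype differences of 0.08, 0.97, 0.04 and 0.36 (log2, STAT3KO minus WT). On the other side Dgke, Tmem100, Stxbp4 and Cox11 had 0.13, 0.58, 0.07 and -0.40. Trim25 itself had -3.17. The levels of Coil, the scaffold of Cajal bodies and next to Trim25, were 7.45, 7.69, 7.71 and 8.15, so it was detected on all 4 arrays.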
